A study of Homo sapiens with 12 samples.

Results

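Mitochondrial ribosomal protein genes were the rows of the count table whose symbol starts with MRPL or MRPS followed by a digit. Of 28278 gene symbols, 86 had such a prefix. After 3 pseudogene rows and 5 noncoding antisense or divergent rows were set aside, 78 members were left, 49 with large subunit symbols (MRPL) and 29 with small subunit symbols (MRPS). In each comparison 76 of the 78 were measured well enough to be tested (a CPM of at least 1 in at least 3 libraries, where CPM is the count scaled to a common library size). MRPS18B and MRPS24 were the exceptions.

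Mitochondrial ribosomes translate the few messages of the mitochondrial genome, which encode core subunits of the respiratory chain and of ATP synthase. The proteins of both ribosomal subunits are encoded in the nucleus, made in the cytosol and imported. Some descend from bacterial ribosomal proteins, and others were added in the mitochondrial lineage. Hydroxychloroquine (HCQ) is a weak base that accumulates in lysosomes and blocks autophagy, the route by which worn mitochondria are also degraded.

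RNA was sequenced from 12 pools of cells labelled OVCAR3 (ovarian cancer) or CCL218 (colorectal cancer). HCQ-evolved cells (label: passage 15) had gone through 15 pulse-chases with HCQ, each with an exposure of 48 h, and then 7 days without drug. Control cells (label: passage 19) had been passaged without HCQ, so treatment and passage number cannot be told apart. Each of the 4 groups had 3 pools, named L, M and R for left, middle and right, which were wells combined by their place on 1 plate. Wells had been passaged apart from each other, and a pool mixes many of them. The p-values therefore measure the spread between pools of 1 plate per group.

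The libraries held 31147822 to 59965861 counts. Of these, the 78 members took 0.357% to 0.553%, or 132092 to 315060 counts per library. The 9 colorectal epithelial markers summed to 913 to 1130 CPM in control OVCAR3 and to 1100 to 1590 CPM in control CCL218, whereas the 7 ovarian serous markers summed to 39.0 to 63.9 and 60.7 to 121 CPM. PAX8, one of the latter, was at 9.30 to 14.9 CPM in control OVCAR3 and at 6.41 to 11.2 CPM in control CCL218. In HCQ-evolved pools the colorectal sums were 222 to 647 CPM in OVCAR3 and 1110 to 1160 CPM in CCL218, and the ovarian sums 39.8 to 63.2 and 102 to 143 CPM. The ovarian markers SOX17 and ESR1 were at or near 0 under both labels, and the colorectal marker KRT20 was too. MUC16, which encodes the ovarian tumour antigen CA125, was higher under the OVCAR3 label, at 13.0 to 30.5 against 4.49 to 14.3 CPM in controls, with overlap, and 21.1 to 50.1 against 3.66 to 5.97 CPM in HCQ-evolved pools. CDX2, an intestinal transcription factor, was lower there, at 8.68 to 13.7 against 21.2 to 26.5 CPM in controls. In HCQ-evolved pools CDX2 was at 0.804 to 9.73 against 62.3 to 71.3 CPM. There CDH17 was at 1.71 to 4.52 against 45.0 to 57.4 CPM, and GPA33 at 1.73 to 7.22 against 32.2 to 36.5 CPM. In controls CDH17 overlapped, at 2.74 to 3.77 against 2.44 to 4.88 CPM. The colorectal marker LGALS4 was at 644 to 860 against 880 to 1370 CPM in controls. Other markers went against the labels. The ovarian marker MSLN was at 10.7 to 18.3 against 46.5 to 95.0 CPM in controls, and at 2.21 to 9.32 against 84.8 to 128 CPM in HCQ-evolved pools. In controls the colorectal markers VIL1 (197 to 290 against 180 to 203 CPM, with overlap) and EPHB2 (8.42 to 10.6 against 7.04 to 8.35 CPM) were higher under the OVCAR3 label. In HCQ-evolved pools both were lower there. The marker sums alone thus gave no clear ovarian profile, while single markers differed between the labels in both directions. The line names are used here as labels. Fibroblast markers summed to at most 3.35 CPM in any library.

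The promoters of 4 members that recur in the results are shown for their sequence just before the start of transcription (RefSeq, GRCh38.p14, 250 bases upstream of the start, given 5′ to 3′ on the strand of the gene). MRPS34 had the highest level per length, MRPL52 the smallest p among large subunit symbols in OVCAR3, MRPL57 the smallest p of any member in CCL218, and MRPL48 the highest fold change in CCL218. Capitals mark 3 motifs known from mitochondrial gene promoters, searched on both strands. They were GCGCATGC (nuclear respiratory factor NRF1), CCGGAAGT (the ETS family, which includes GABPA) and AAGATGGC (YY1).
MRPS34 (chr16:1773135-1773384, minus strand): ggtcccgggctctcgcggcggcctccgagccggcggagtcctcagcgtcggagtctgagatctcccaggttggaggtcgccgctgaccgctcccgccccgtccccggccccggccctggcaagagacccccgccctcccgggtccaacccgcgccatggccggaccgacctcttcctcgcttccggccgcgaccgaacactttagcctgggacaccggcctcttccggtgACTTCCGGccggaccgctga
MRPL52 (chr14:22829637-22829886, plus strand): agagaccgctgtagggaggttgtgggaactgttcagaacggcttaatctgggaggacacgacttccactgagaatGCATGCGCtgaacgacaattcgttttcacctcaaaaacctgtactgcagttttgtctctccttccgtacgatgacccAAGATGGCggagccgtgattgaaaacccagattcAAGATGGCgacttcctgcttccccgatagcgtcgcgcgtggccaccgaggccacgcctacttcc
MRPL57 (chr13:21176408-21176657, plus strand): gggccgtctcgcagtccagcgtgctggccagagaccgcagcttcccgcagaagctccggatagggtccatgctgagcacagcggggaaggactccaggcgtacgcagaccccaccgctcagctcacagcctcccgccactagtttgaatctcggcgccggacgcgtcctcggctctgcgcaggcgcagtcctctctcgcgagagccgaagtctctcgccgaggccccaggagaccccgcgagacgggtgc
MRPL48 (chr11:73787624-73787873, plus strand): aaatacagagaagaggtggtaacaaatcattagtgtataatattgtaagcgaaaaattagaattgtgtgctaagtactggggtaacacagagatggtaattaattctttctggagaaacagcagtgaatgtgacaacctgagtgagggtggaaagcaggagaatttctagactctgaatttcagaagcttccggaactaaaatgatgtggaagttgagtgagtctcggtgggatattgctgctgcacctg

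The promoter of MRPS34 held 1 ETS motif and that of MRPL52 held 1 NRF1 and 2 YY1 motifs, whereas those of MRPL57 and MRPL48 held 0 of the 3 motifs in these letters. RefSeq promoters were matched for 69 members. At least 1 of the 3 motifs stood in the 250 upstream bases of 17 of these (24.6%), against 2468 of all 35116 promoters (7.03%). In 300 bases that also took in the first 50 of the transcript, the YY1 motif was found in 29.0% of member promoters and 2.89% of all, the ETS motif in 15.9% and 4.14%, and the NRF1 motif in 8.70% and 3.05%. These are matches of letters and not binding sites. For members 1 promoter per symbol was used. The 35116 promoters were all entries, not limited by kind of gene or by expression, so the shares are not strictly like for like. In the members no match overlapped a match of another motif.

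Levels were compared between members as RPKM, the CPM divided by the length in kilobases of the canonical GENCODE 44 transcript, averaged over the 12 libraries. MRPS34, a small subunit protein found only in mitochondria, was highest at 148 RPKM. It was followed by MRPL13 at 118, MRPL12 (the stalk protein, also known to bind the mitochondrial RNA polymerase) at 116, MRPS15 (which binds the small subunit rRNA) at 105 and MRPL51 at 103 RPKM. Neither these 5 nor their order were the same in each group. In control OVCAR3, MRPL41 (145 RPKM) and MRPL23 (133) stood above MRPL51 (118) and MRPL13 (109). In HCQ-evolved CCL218, MRPL37 (78.5 RPKM) and MRPL21 (77.4) stood above MRPL12 (72.0) and MRPS15 (59.9). MRPS34 was highest in 3 groups, at 184 ± 53.7, 171 ± 56.2 and 139 ± 38.7 RPKM in control OVCAR3, HCQ-evolved OVCAR3 and control CCL218 (SD, n = 3), but MRPL13 was at 110 ± 6.11 and MRPS34 at 99.4 ± 12.4 RPKM in HCQ-evolved CCL218. From MRPL13 down, neighbours in this order differed by less than the larger of their SDs in each group except HCQ-evolved CCL218. There MRPL13 stood above MRPL12 (72.0 ± 10.7 RPKM), and MRPL12 above MRPS15 (59.9 ± 5.47 RPKM). MRPS15 stood below MRPL51 (73.4 ± 9.54 RPKM), against the order. Each of these steps was more than the larger SD.

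The lowest tested members were MRPS18C at 4.72, MRPS36 at 5.09 and MRPL42 at 5.13 RPKM. MRPS36 is known to be a subunit of the 2-oxoglutarate dehydrogenase complex rather than of the ribosome. MRPL42 was low only per length, because its canonical transcript is listed with 15557 bases. The deposited counts for it were in the range of other members, with 67.8 to 92.9 CPM per library. The other members ranged upward from 6.44 RPKM for MRPL19.

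The 3 human copies of one bacterial small subunit protein, MRPS18A, MRPS18B and MRPS18C, differed widely. MRPS18A, which despite its symbol sits in the large subunit, was the highest of these at 33.9 ± 2.49 CPM in control OVCAR3 and 26.3 ± 1.06 CPM in control CCL218. MRPS18C was at 5.01 to 10.3 CPM in the 12 libraries. MRPS18B had 0 to 2 counts in each library, below the floor of 3 counts. Its place in the major histocompatibility region of chromosome 6 (30617840 to 30626395, plus strand, hg38) was shared by other genes with almost no reads: of 11 coding genes within 100 kb, 10 had fewer than 10 counts in every library. The exception, TUBB, had 8 to 38 counts although tubulin genes are used by every cell. The level of MRPS18B in these cells can therefore not be read from this table.

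MRPS24, a small subunit protein with a bacterial counterpart, had 0 to 9 counts. All of its exons on chromosome 7 (43866558 to 43869893, minus strand) lie within the read-through gene URGCP-MRPS24, which was listed with 0 counts in each library, while URGCP itself had 1449 to 2855. Of the 78 members, 28 had an exon that overlaps an exon of another gene of the table, 6 of them on the same strand, MRPS6 (SLC5A3) and MRPL33 (BABAM2) among them. Whether the counting used strand is not given in the sources used here.

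**Figure D1:**
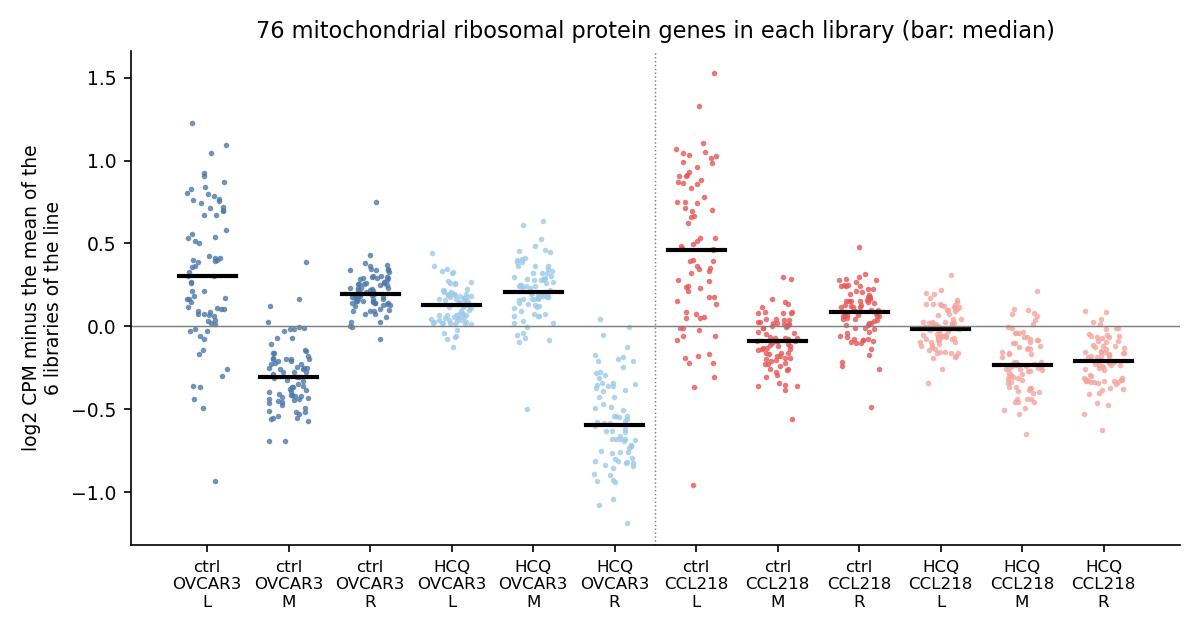
Log2 CPM of the 76 tested members in each of the 12 libraries (x axis: control, ctrl, and HCQ-evolved, HCQ, pools L, M and R of each line), as the difference from the mean of the 6 libraries of the line (y axis, log2). Points are genes and bars are medians. HCQ-evolved OVCAR3 R was lowest (median -0.59) and control CCL218 L highest (median 0.46).

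The members moved together from library to library. In OVCAR3 the median of the 76 tested members, as log2 CPM minus the mean of the line, was 0.30, -0.30 and 0.20 in control pools L, M and R, and 0.13, 0.21 and -0.59 in HCQ-evolved pools. Control M and HCQ-evolved R thus stood below the other 4 pools, with 72 and 75 of 76 members under the mean of the line. In CCL218 the medians were 0.46, -0.09 and 0.09 in control pools and -0.02, -0.23 and -0.21 in HCQ-evolved pools. There the control L pool stood above the rest, and HCQ-evolved M and R stood lowest, with 68 and 71 members under the mean.

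These shifts went with a trend of whole libraries with transcript length. Members have short transcripts, with a median of 1242 bases against 3229 over all tested genes with a known length. For each library, the Spearman correlation across non-member genes of length with the deviation from the line mean was computed as a description of that library. In OVCAR3 it was -0.352, 0.520 and -0.400 in control pools L, M and R and -0.403, -0.431 and 0.554 in HCQ-evolved pools. In CCL218 it was -0.504, 0.461 and 0.042 in control pools and -0.212, 0.291 and 0.457 in HCQ-evolved pools. In OVCAR3 the 2 pools in which long transcripts stood high, control M and HCQ-evolved R, were the 2 in which the members stood low. In CCL218 the match was looser, as control M had a length correlation near that of HCQ-evolved R but a higher member median.

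With the mean of each group removed, the 12 libraries fell into 2 clusters by the sign of the length correlation, so no pooled correlation is given. Removing the mean of 3 pools puts values on both sides of 0, so this step can itself make such a gap. With only the line mean removed, HCQ-evolved CCL218 L (-0.212) and control CCL218 R (0.042) lay between the others. The 6 libraries with a length correlation of -0.621 to -0.400 had member medians of 0.115 to 0.318, and the 6 with 0.290 to 0.648 had member medians of -0.533 to -0.063. Within the first 6, Pearson's r was -0.33 (exact permutation p = 0.478) and Spearman's rho -0.257 (p = 0.658, exact). Within the other 6, r was -0.788 (exact permutation p = 0.0667) and rho -0.638 (p = 0.2, exact). Adjusted over both clusters, the exact p-values for r were 0.478 and 0.133, and those for rho 0.658 and 0.4. Exact means here that all orders of the 6 libraries were run. Pools of a group are not independent once its mean is removed, and the clusters were set by the length correlation itself. These p-values are therefore only approximate. Without the 2 libraries farthest from the median length correlation, r was 0.459 and -0.794. The relation thus showed as a difference between libraries below and above 0. With 6 libraries on each side and a narrower range within each, whether it was also graded could not be settled. Of the 6 below 0, 4 were from OVCAR3 and 2 from CCL218, and of the 6 above 0, 2 were from OVCAR3 and 4 from CCL218. The part of the length trend in the comparisons below was examined only by fits with the trend removed.

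**Figure D2:**
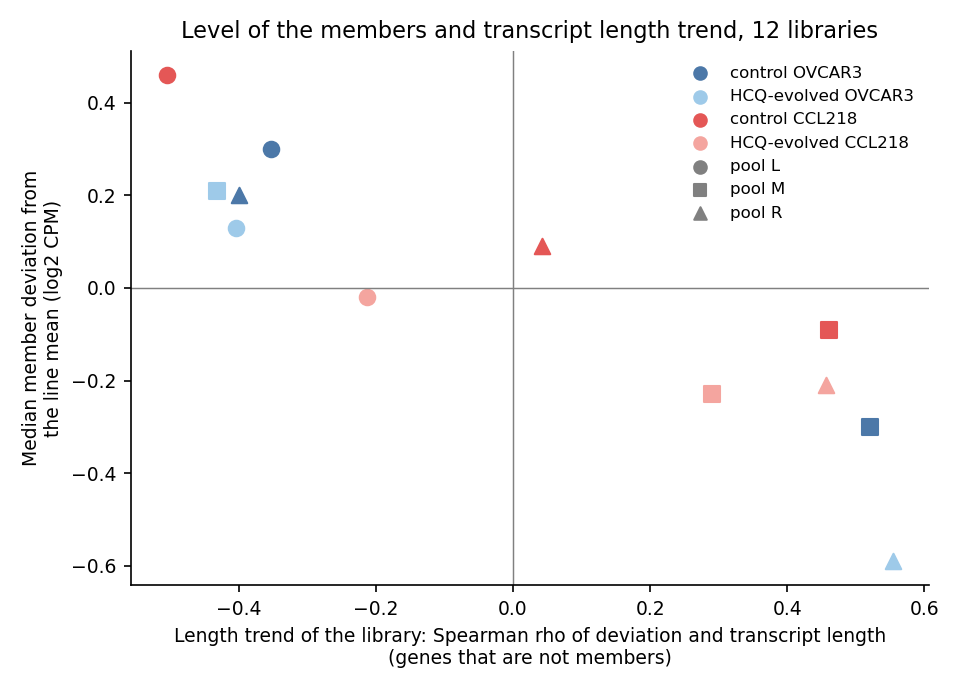
Median deviation of the 76 tested members from the line mean (y axis, log2 CPM) against the length trend of each library (x axis: Spearman rho across non-member genes of deviation and transcript length), 1 point per library. Colours are groups and shapes are pools. Libraries with a rho below -0.3 had member medians of 0.13 to 0.46, and those with a rho above 0.4 had medians of -0.09 to -0.59.

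HCQ-evolved OVCAR3 was compared with control OVCAR3 to ask whether repeated exposure left a lasting change in these genes. No member passed the test (edgeR quasi-likelihood test, Benjamini-Hochberg adjusted p over all genes), while 227 of 12204 genes did (1.86%). The count at an unadjusted p under 0.05 was also 0 of 76, against 16.2% of all genes, and DESeq2 called 0, against 9.05%. Of the 76, 52 had a lower and 24 a higher fitted level, with a median log2 fold change of -0.11 (0.02 over all genes) and a range of -0.79 to 0.50. Without HCQ-evolved R, the pool with the strongest length trend, the median was 0.07, so its sign rested on that pool.

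MRPS6, a small subunit protein with a bacterial counterpart, was the lowest in OVCAR3. It was at 75.8, 34.2 and 73.7 CPM in control pools L, M and R and at 49.4, 31.1 and 24.3 CPM in HCQ-evolved pools. Control M fell among the HCQ-evolved pools, so the groups overlapped. The log2 fold change was -0.79 (SE 0.37, adjusted p = 0.35, edgeR).

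MRPS15 came next at 233, 96.4 and 130 CPM in control pools and 104, 107 and 63.8 CPM in HCQ-evolved pools, with overlap. MRPL52, a large subunit protein found only in mitochondria, was at 53.3, 27.5 and 40.1 CPM and at 30.6, 32.9 and 16.5 CPM, and its log2 fold change was -0.58 (SE 0.32, adjusted p = 0.436, edgeR). MRPL41 and MRPL23 (near the tunnel through which the new chain leaves) had log2 fold changes of -0.58 and -0.56. Both were highest in control L, where MRPL23 reached 154 CPM against 34.3 to 77.6 in the other 5 pools of the line. Without control L the log2 fold change of MRPL23 was 0.05.

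At the other end, MRPL13, a large subunit protein with a bacterial counterpart, was at 113, 119 and 182 CPM in control pools and at 215, 242 and 124 CPM in HCQ-evolved pools. HCQ-evolved L and M stood above the controls and R among them. Its log2 fold change was 0.50 (SE 0.30, adjusted p = 0.464, edgeR). MRPL33, MRPL37, MRPS14 and MRPS28 followed with log2 fold changes of 0.34, 0.31, 0.26 and 0.25, none past the test.

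The pools of control and HCQ-evolved OVCAR3 did not overlap for 1 of the 76 members (1.32%), with HCQ-evolved pools lower, against 12.7% of all genes, and for 0 with HCQ-evolved pools higher, against 13.0%. The 1 was MRPS27, a pentatricopeptide repeat protein of the small subunit, named here after its values were seen. It was at 137 ± 2.17 CPM in control and 112 ± 8.22 CPM in HCQ-evolved pools (SD, n = 3). Its log2 fold change of -0.28 did not pass the test.

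HCQ-evolved CCL218 was compared with its controls for the same question, and here the members leaned lower. Of 76 tested, 68 (89.5%) had a lower fitted level, with a median log2 fold change of -0.34 (-0.02 over all genes) and a range of -1.05 to 0.38. No member passed the adjusted test by edgeR with pools taken as unpaired, whereas 791 of 12241 genes did (6.46%). An unadjusted p under 0.05 with a lower level was found for 17 members (22.4%), against 12.7% of all genes. DESeq2 called 6 members (7.89%), all lower, against 8.72% of all genes called lower. Pools did not overlap, with HCQ-evolved lower, for 23 members (30.3%), against 17.3% of all genes, and with HCQ-evolved higher for 1 member (1.32%), against 18.6%.

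Pools with the same plate position deviated together in CCL218, so the paired fit, with a replicate block for position, stands beside the unpaired one. That choice rested on these same data, was not borne out in OVCAR3, and paired pools from separate plates. Its adjusted p-values are to be read with this limit. The paired fit called 9 members (11.8%), all lower, against 6.43% of all genes called lower, and the median was -0.30. They were MRPL11, MRPL12, MRPL16, MRPL36, MRPL38, MRPL57, MRPL58, MRPS6 and MRPS26. With the length and GC trend of each library removed, 15 members were called, 14 of them lower (18.4%, against 9.67% of all genes) and 1 higher (1.32%, against 9.62%). The median was then -0.24, and the 9 members of the paired fit were among the 15. With both, 10 members were called, 9 of them lower (11.8%, against 8.13% of all genes), and the median was -0.21. MRPL11, MRPL36 and MRPL57 were called under each of these 3 settings and by DESeq2. The share of all genes called under all 4 is not given here, so these 3 cannot be set against it.

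The control L pool of CCL218 bore on these values. Without it the median was -0.15, and 10 members were called, 9 of them lower (11.8%), against 11.6% of all genes called lower. So the share of members called was then near that of all genes. Leaving out any of the other 5 pools of the line gave medians of -0.29 to -0.43 and 0 members called. The control L pools of both lines were alike in some members: MRPL45, which anchors the ribosome to the inner membrane, was at 19 and 18.9 CPM there and at 36.2 to 51.1 CPM in the other 10 libraries.

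MRPL57, a small protein of the large subunit found only in mitochondria (chromosome 13, 21176658 to 21179084, plus strand), had the smallest p. It was at 108, 58.4 and 61.9 CPM in control pools and at 41.1, 33.2 and 37.9 CPM in HCQ-evolved pools. Each HCQ-evolved pool was below each control pool. The log2 fold change was -1.03 (SE 0.25), with an adjusted p of 0.0593 unpaired and 0.00682 paired (edgeR). Without any single pool it stayed between -1.18 and -0.69, and with the length and GC trend removed it was -1.02.

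MRPL36, a short protein of the large subunit with a bacterial counterpart, was at 43.3, 25 and 29.8 CPM in control pools and at 23.4, 18.6 and 18.1 CPM in HCQ-evolved pools, without overlap. Its log2 fold change was -0.71 (SE 0.23), with an adjusted p of 0.111 unpaired and 0.0203 paired (edgeR), and -0.46 without control L. MRPL11, at the base of the stalk where translation factors dock, was at 94.5, 72.1 and 81.0 CPM and at 63.6, 52.4 and 53.8 CPM, again without overlap. Its log2 fold change was -0.55 (SE 0.15), with an adjusted p of 0.0806 unpaired and 0.0293 paired (edgeR). In OVCAR3 the log2 fold changes of MRPL57 and MRPL11 were -0.11 and 0.05, and their signs depended on single pools (-0.32 to 0.11 and -0.17 to 0.30 without 1 pool).

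**Figure D3:**
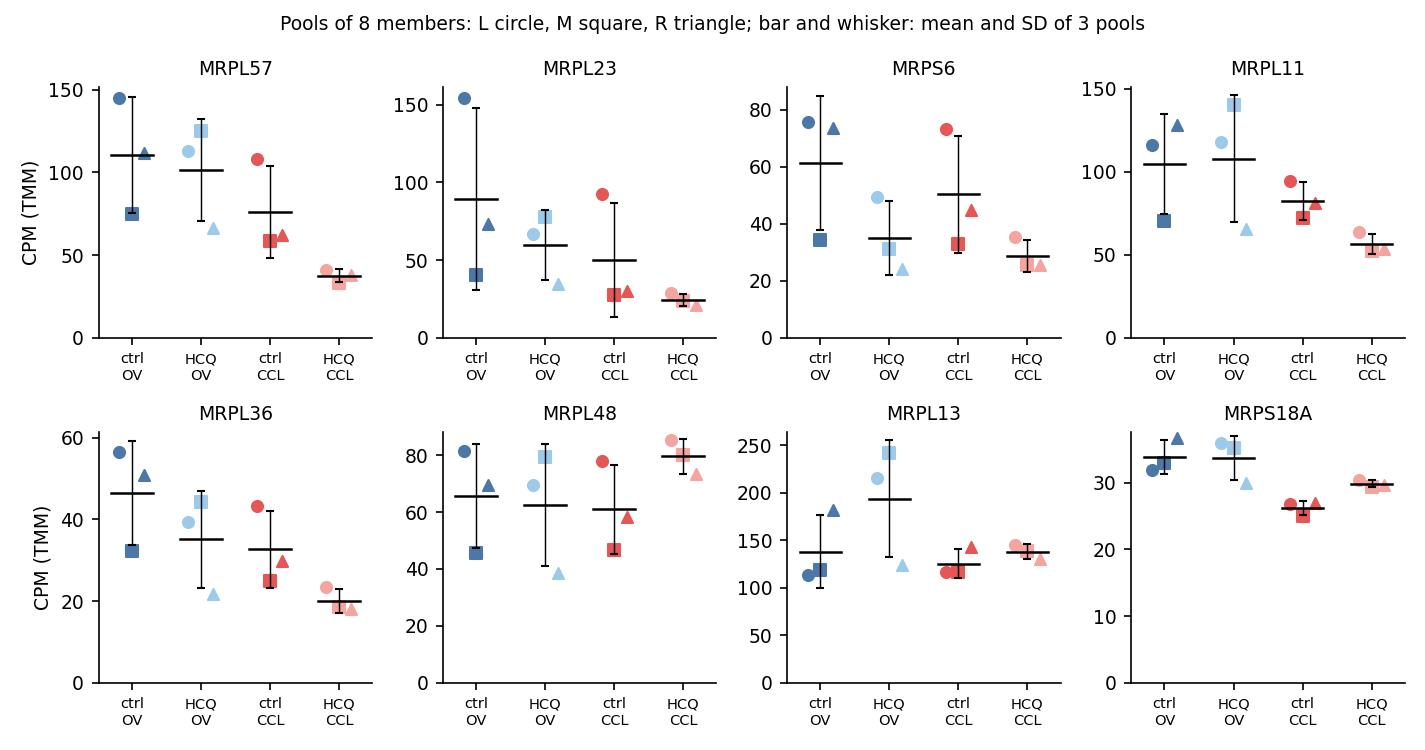
CPM (y axis, linear, from 0) of 8 members in the 3 pools of each group (x axis: control, ctrl, and HCQ-evolved, HCQ, in OVCAR3, OV, and CCL218, CCL). Bars and whiskers are means and SD of 3 pools. MRPL57, MRPL11 and MRPL36 were lower in every HCQ-evolved CCL218 pool than in every CCL218 control pool, and MRPS18A was higher.

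MRPS6 was low in CCL218 as well, at 73.1, 32.8 and 44.9 CPM in control pools and 35.3, 25.5 and 25.5 CPM in HCQ-evolved pools. HCQ-evolved L lay above control M. Its log2 fold change was -0.81 (SE 0.30), with an adjusted p of 0.156 unpaired and 0.021 paired (edgeR). Without control L it was -0.44. MRPL58, a peptidyl-tRNA hydrolase that frees stalled chains, was at 37.1 ± 6.08 CPM in control and 25.1 ± 2.82 CPM in HCQ-evolved pools (SD, n = 3), with a log2 fold change of -0.56 and an adjusted p of 0.0311 paired (edgeR).

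The lowest fitted value, that of MRPL23, rested mostly on 1 pool. It was at 92.6, 27.7 and 30.3 CPM in control pools and at 28.8, 23.4 and 20.8 CPM in HCQ-evolved pools, with overlap. The log2 fold change was -1.05 (SE 0.46, adjusted p = 0.212, edgeR), and -0.26 without control L. MRPL41 gave -0.72, and 0.03 without control L. MRPS15 was at 155, 66.5 and 72.3 CPM in control pools and 62.9, 53.0 and 55.3 CPM in HCQ-evolved pools, without overlap, and its log2 fold change was -0.78 (SE 0.32, adjusted p = 0.189, edgeR), and -0.29 without control L. MRPS33, the small subunit symbol with the smallest p, was at 50.4, 30.8 and 35.8 CPM and at 28.4, 25.8 and 25.3 CPM, also without overlap, with an adjusted p of 0.138 (edgeR).

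In CCL218, 8 members leaned higher. MRPL48, a large subunit protein found only in mitochondria, was at 77.8, 46.6 and 58.3 CPM in control pools and 85.4, 79.9 and 73.3 CPM in HCQ-evolved pools, where only control L reached into the HCQ-evolved range. Its log2 fold change was 0.38 (SE 0.20, adjusted p = 0.278, edgeR). The adjusted p was 0.0312 with the length and GC trend removed, and it was the 1 member called higher there. Without control L the log2 fold change was 0.59 (adjusted p = 0.00517, edgeR). MRPS18A was at 26.8, 25 and 26.9 CPM in control pools and 30.4, 29.4 and 29.7 CPM in HCQ-evolved pools. It was the 1 member with each HCQ-evolved pool above each control pool, but the step was small, at a log2 fold change of 0.18 (SE 0.11, adjusted p = 0.356, edgeR). MRPL33, MRPL13 and MRPL35 had log2 fold changes of 0.18, 0.13 and 0.07.

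The members' counts were also summed, which gives weight to the abundant ones. In CCL218 they took 0.532%, 0.409% and 0.455% of counts in control pools L, M and R and 0.403%, 0.360% and 0.368% in HCQ-evolved pools. Each HCQ-evolved share was below each control share. The means were 0.465% ± 0.0622 and 0.377% ± 0.0231 (SD, n = 3), a ratio of 0.811, with an exact permutation p of 0.1, two-sided, the smallest that 3 against 3 pools allow. In OVCAR3 the shares were 0.553%, 0.424% and 0.543% in control pools and 0.525%, 0.537% and 0.357% in HCQ-evolved pools, which overlapped (0.507% ± 0.0720 and 0.473% ± 0.101, SD, n = 3, exact permutation p = 0.5, two-sided).

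Both subunits and both classes of origin leaned the same way. In CCL218 the median log2 fold change was -0.36 over 49 large subunit symbols (43 lower) and -0.26 over 27 small subunit symbols (25 lower). It was -0.34 over 45 members with a bacterial counterpart (40 lower) and -0.28 over 31 specific to mitochondria (28 lower). In OVCAR3 the medians were -0.14 for large and -0.09 for small subunit symbols, with 36 and 16 lower. No difference between these classes was tested.

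The log2 fold changes of the members were set side by side in both lines. Across 76 members the log2 fold changes in OVCAR3 and CCL218 had a Pearson correlation of 0.69 and a Spearman correlation of 0.71, and 0.56 and 0.60 with the length and GC trend removed, as a description, since genes are not independent replicates. Over all 11944 genes tested in both lines they were 0.56 and 0.61. A total of 51 members were lower in both lines and 7 higher in both. The control L pools of the lines, which enter both sets of fold changes, deviated alike from their line means, by 1.23 and 1.53 (log2 CPM, OVCAR3 and CCL218) for MRPL23, 1.10 and 1.33 for MRPL41, 1.04 and 1.11 for MRPS15 and -0.93 and -0.96 for MRPL45. Without control L in each line, a setting chosen after the data were seen, the correlations across members were 0.37 and 0.36, and 35 members were lower and 10 higher in both. Over all 11781 genes tested in both lines the correlations were then 0.48 and 0.47. So the likeness of the lines in these genes rested in part on those pools and was not particular to the members. Whether the change differed between the lines was tested by an interaction term over the 12 libraries. No member passed (edgeR, 0 at an unadjusted p under 0.05 as well, 0 by DESeq2), against 0.872% of all 12613 genes in edgeR, 9.11% at the unadjusted p and 3.67% in DESeq2. The median interaction was -0.18, with 61 of 76 negative. MRPL57 had the smallest p, with an interaction of -0.90 (SE 0.44, adjusted p = 0.608, edgeR), and among small subunit symbols MRPS12, a protein of the decoding centre, with -0.45 (SE 0.39, adjusted p = 0.951, edgeR).

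**Figure D4:**
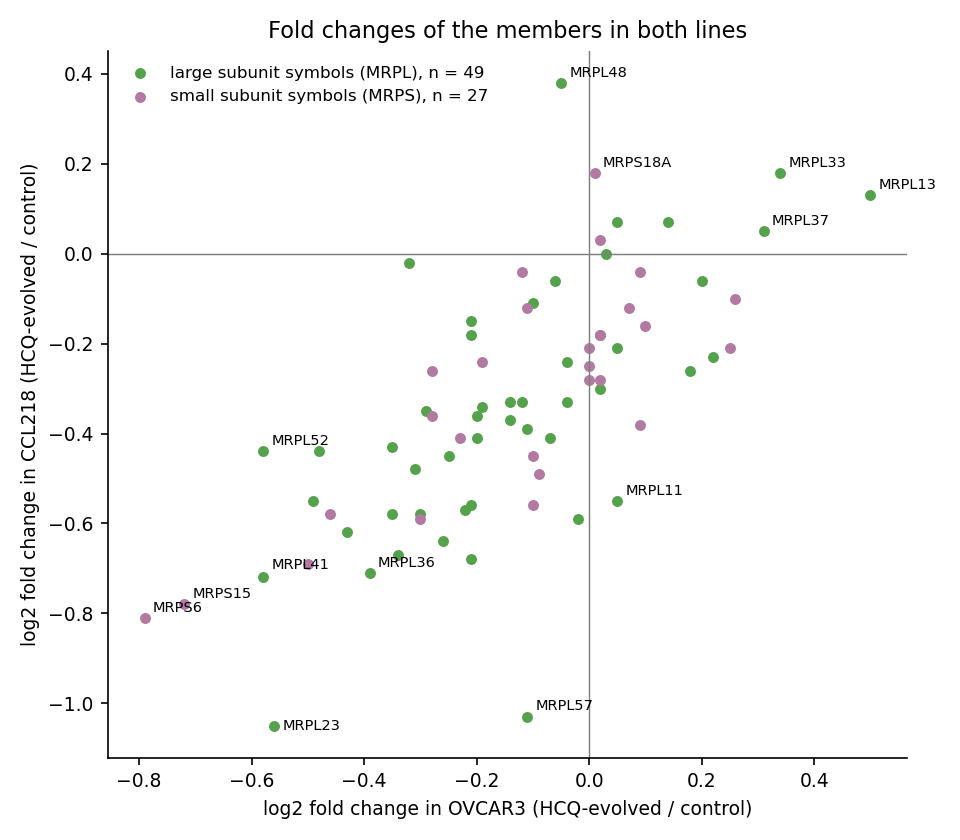
Log2 fold change of HCQ-evolved over control pools in CCL218 (y axis) against that in OVCAR3 (x axis), 1 point for each of the 76 tested members, 49 MRPL and 27 MRPS. Points lie mostly in the lower left, with 51 members lower in both lines. MRPL57 (-0.11 in OVCAR3, -1.03 in CCL218) and MRPL48 (-0.05, 0.38) stand away from the diagonal, though the signs of both in OVCAR3 changed when 1 pool was left out.

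The control pools of the lines were compared with each other for the level in cells passaged without HCQ. Members were mostly lower in control CCL218 than in control OVCAR3 (70 of 76, median log2 difference -0.29), but none passed the test, against 3.42% of all genes (edgeR). At an unadjusted p under 0.05, 5 members were lower (6.58%, against 7.88% of all genes), and DESeq2 called 2 members (2.63%, against 7.33%). With the length and GC trend removed, the median was -0.02, with 35 higher and 41 lower. MRPS18A had the smallest p, with 31.9, 33.0 and 36.7 CPM in control OVCAR3 and the lower values given above in control CCL218, without overlap. Its log2 difference was -0.37 (SE 0.12, adjusted p = 0.172, edgeR), and 0.01 with the length and GC trend removed. MRPL46, a large subunit protein, was at 40.8, 30.7 and 49.0 CPM in control OVCAR3 and 25.6, 22.7 and 25.6 CPM in control CCL218, also without overlap, with a log2 difference of -0.71 (SE 0.25, adjusted p = 0.193, edgeR).

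Other genes of mitochondrial translation gave context. The 5 ribosomal proteins with other symbols had a median log2 fold change of -0.29 in CCL218 and -0.10 in OVCAR3, and none passed the test. DAP3, a GTP-binding protein of the small subunit, had the smallest p in CCL218 (114 ± 11.1 CPM in control and 93.7 ± 3.70 in HCQ-evolved pools, SD, n = 3, adjusted p = 0.203, edgeR), and AURKAIP1 in OVCAR3 (adjusted p = 0.784, edgeR). Of 29 assembly and rRNA factors, 25 were lower in CCL218 (median -0.26) and 1 passed, against 6.46% of all genes. It was TRUB2, a pseudouridine synthase that acts on mitochondrial RNA, which fell from 77.2 ± 11.4 to 45.0 ± 2.33 CPM (SD, n = 3, log2 fold change -0.78, SE 0.15, adjusted p = 0.0251, edgeR). Without 1 pool its adjusted p was 0.000989 to 0.169, and it passed in 2 of 6 such fits. In OVCAR3, 19 of 29 were lower (median -0.11), none passed, and YBEY, an RNA endonuclease, had the smallest p (adjusted p = 0.258, edgeR).

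Of 18 translation factors, 15 were lower in CCL218 (median -0.30) and 11 in OVCAR3 (median -0.06), and none passed. METAP1D, which removes the first methionine, had the smallest p in CCL218 (adjusted p = 0.0727, edgeR) and OXA1L, which inserts new chains into the inner membrane, in OVCAR3 (adjusted p = 0.505, edgeR). The list of 20 mitochondrial aminoacyl-tRNA synthetases, which also holds the tRNA amidotransferase subunits QRSL1, GATB and GATC, had medians of -0.06 in CCL218 and -0.11 in OVCAR3. None passed. SARS2, which charges serine tRNA, had the smallest p in CCL218 at a log2 fold change of -0.69 (adjusted p = 0.106, edgeR), and IARS2, which charges isoleucine tRNA, in OVCAR3 at 0.67 (adjusted p = 0.193, edgeR).

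Of 14 tested regulators of mitochondrial transcription and biogenesis, 9 were lower in CCL218 (median -0.12) and 7 in OVCAR3 (median 0.00). PPRC1, a coactivator that works with NRF1, fell in CCL218 from 86.2 ± 6.86 to 54.5 ± 7.20 CPM (SD, n = 3, log2 fold change -0.66, SE 0.14, adjusted p = 0.0381, edgeR). It was the 1 regulator of 14 that passed, against 6.46% of all genes. Without 1 pool its adjusted p was 0.00279 to 0.238, and it passed in 1 of 6 such fits. In OVCAR3 none passed, and MYC, a growth regulator, had the smallest p at a log2 fold change of -0.68 (adjusted p = 0.356, edgeR). In the paired fit of CCL218, 4 of 29 assembly factors, 1 of 18 translation factors, 1 of the 20 in the synthetase list (SARS2, adjusted p = 0.018, edgeR) and 2 of 14 regulators were called, all lower, against 6.43% of all genes called lower. Messages of the mitochondrial genome itself were not analysed here.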

How the data were processed

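The authors aligned polyA RNA reads to hg38 with STAR on a Galaxy server, removed duplicates and deposited counts of reads per gene symbol, made with featureCounts. The annotation, the strand setting and versions of these tools are not given in the sources used here. The deposited counts were scaled by TMM and tested with edgeR 4.0.16 (R 4.3.3, quasi-likelihood F test, robust) for genes reaching 1 CPM in 3 or more libraries, with Benjamini-Hochberg adjustment over all genes at 0.05. Each line was fitted alone, and the interaction and the comparison of control lines came from one fit of the 12 libraries. The pipeline was tested on simulated data.

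Transcript length and GC content came from GENCODE 44 on hg38 for 25763 of 28278 symbols (91.1%). Their trend was removed by a spline with 4 degrees of freedom per library, entered as an offset. Pools of the same plate position in CCL218 correlated, after subtraction of group means, by 0.506 (L), 0.233 (M) and 0.195 (R). Each exceeds 0.1, which is why a paired fit is given for that line beside the unpaired one. Alternatives were DESeq2 1.42.0, median-ratio scaling, no low-count filter and leaving out each pool.

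Named members were those with the 5 highest and 5 lowest log2 fold changes per line, the smallest p of each subunit in each comparison, the 5 highest and 3 lowest RPKM, the MRPS18 copies and the untested. Those called in the paired fit of CCL218, and MRPS27, MRPL19, MRPL21 and MRPL45, were named after their values were seen. Of the other lists, members that passed and the smallest p per line were named. The members and lists were chosen with earlier results of these data known.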

Additional observations from a re-analysis of the deposited data

How the results depend on the processing

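The number of members past the adjusted threshold in CCL218 (0 by edgeR with unpaired pools) was the value that depended most on the processing. It was 9 with a replicate block for plate position, 15 with the length and GC trend removed, 10 with the replicate block and the trend removed together, 6 with DESeq2 and 1 with no filter on low counts, and leaving out 1 pool gave 0 to 10. The shares of all genes called moved as well. Called lower were 6.43% with the block, 9.67% with the trend removed, 8.13% with both, 8.72% with DESeq2 and 11.6% without control L. With the trend removed, 9.62% of all genes were called higher. No share is given for the fit without the filter, so its count cannot be set against all genes. Between control lines DESeq2 gave 2 members and leaving out 1 pool gave 0 to 1. In OVCAR3 and in the interaction the count was 0 under each alternative run. In OVCAR3 the plate positions did not pair the pools (correlations of 0.401, -0.665 and -0.478), and the block gave 0 members and a median of -0.13.

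Leaving out 1 pool moved the median log2 fold change of the members between -0.43 and -0.15 in CCL218, between -0.26 and 0.07 in OVCAR3, between -0.39 and -0.01 in the interaction and between -0.46 and -0.16 between control lines. Among named members, MRPL41 in CCL218 (0.03 without control L, otherwise down to -1.0 without 1 pool), MRPL23 in OVCAR3 (0.05 without control L, otherwise down to -0.91) and MRPS28 in OVCAR3 (-0.02 without HCQ-evolved M, otherwise up to 0.55) changed sign. So did MRPL35 in CCL218, at -0.05 with the length and GC trend removed, alone or with the replicate block, and MRPS18A between control lines, at 0.01 and 0.00 under these 2 settings. MRPL57, MRPL11 and MRPL48 in OVCAR3 also changed sign when 1 pool was left out (-0.32 to 0.11, -0.17 to 0.30 and -0.25 to 0.19). This is not a full list. Other named members that did so in OVCAR3 included MRPS34 (-0.30 to 0.16), MRPS33 (-0.30 to 0.16) and MRPS36 (-0.45 to 0.19). In CCL218 they included MRPS36 (-0.49 to 0.27) and MRPL37 (-0.10 to 0.18). The cause was not tested. Libraries held at least 31147822 counts, and how much of the error came from depth and how much from the spread between 3 pools was not separated.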
